A study of Mus musculus with 6 samples.

Results

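Fatty acid synthesis and desaturation was followed through 10 genes, Acly, Acss2, Acaca, Fasn, Elovl6, Scd1, Scd2, Fads1, Fads2 and Srebf1, which were found by their symbols among the 54446 genes listed in the deposited matrices. All 10 were present and all 10 were abundant enough to test, with at least 169 UMIs (unique molecular identifiers, counts of captured RNA molecules) in every library. Expression was measured by droplet single-cell RNA sequencing of 5′ transcript ends in 2 libraries of GL261, an established mouse glioma line grown in a differentiation medium with fetal calf serum, and in 4 libraries of GL261-GSCs, glioblastoma stem cell cultures derived from that line and kept in a defined stem cell medium. The line, the culture form (neurospheres are named in the protocol) and the medium therefore differ together between the groups and cannot be told apart, and no genotype or drug separates them. The labels do not say whether the libraries of a group came from separate cultures, so the p-values measure the spread between these libraries, which may be technical.

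These genes form a production line for fatty acids. Acly and Acss2 supply acetyl-CoA in the cytosol, Acaca carboxylates it to malonyl-CoA, and Fasn joins these units into palmitate. Elovl6 lengthens palmitate to stearate, Scd1 and Scd2 place the first double bond to give monounsaturated fatty acids, and Fads1 and Fads2 desaturate the precursors of long polyunsaturated fatty acids. Srebf1 encodes a transcription factor that is made as an inactive membrane protein and, once cut and moved to the nucleus, activates genes of this line, while its relative Srebf2 acts mainly on sterol synthesis. In the brain Scd2 is known as the main stearoyl-CoA desaturase, whereas Scd1 is best known from liver and fat.

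Each library gave 80899005 to 121309232 UMIs in all and 4264 to 7275 called cells, with a median of 6670 to 15477.5 UMIs per cell. Of the 5 fat cell markers, Lep had 0 UMIs and Cidec 1 UMI over all 6 libraries, and Adipoq had at most 3 UMIs in a library. Plin1 had 8 to 62 UMIs per library. Fabp4 had 2 UMIs in each GL261 library and 17, 18, 81 and 34 UMIs in GL261-GSCs replicates 1 to 4. Of the glioma and stem culture markers Sox2 and Olig2 were higher and Nes, Cd44 and Vim lower in GL261-GSCs. GL261-GSCs replicates 1 and 2 resembled each other, as did replicates 3 and 4. The chi-square per degree of freedom over genes was 70.1 and 44.8 within these pairs, 147 to 216 across them and 21.5 between the GL261 libraries. Replicate 4 had the lowest depth per cell and the highest share of Malat1, a nuclear RNA, with 0.813% of UMIs against 0.288% to 0.457% in the other libraries. Called cells of any pair of libraries shared 32 to 59 barcodes, where list sizes alone gave 26.1 to 57.9.

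Promoter sequences were available for 7 of the 10 genes in the RefSeq table (GRCm38.p6), and 3 are shown because their genes were called higher in GL261-GSCs and because they hold the letters of motifs known from lipogenic promoters. The bases run 5′ to 3′ on the strand of the gene, end before the first annotated base of the gene, and capitals mark a CCAAT box (CCAAT), a GC box (GGGCGG) or an E-box (CANNTG) on either strand.
Fasn, chr11:120824548-120824797, minus strand: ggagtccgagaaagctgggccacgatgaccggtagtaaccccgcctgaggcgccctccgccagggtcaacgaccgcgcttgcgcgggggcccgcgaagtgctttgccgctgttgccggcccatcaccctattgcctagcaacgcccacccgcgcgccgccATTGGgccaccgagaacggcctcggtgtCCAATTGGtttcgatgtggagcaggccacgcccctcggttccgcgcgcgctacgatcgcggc
Acss2, chr2:155517793-155517947, plus strand: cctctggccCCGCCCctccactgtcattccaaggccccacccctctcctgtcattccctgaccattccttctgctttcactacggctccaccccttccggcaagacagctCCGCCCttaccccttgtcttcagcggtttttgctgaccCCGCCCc
Acly, chr11:100528001-100528250, minus strand: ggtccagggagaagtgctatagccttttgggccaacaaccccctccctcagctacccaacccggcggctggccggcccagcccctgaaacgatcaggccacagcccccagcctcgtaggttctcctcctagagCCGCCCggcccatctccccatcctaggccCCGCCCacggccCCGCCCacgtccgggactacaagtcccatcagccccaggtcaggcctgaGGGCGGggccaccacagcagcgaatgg
The Fasn sequence held CCAAT letters at 3 places, and the pair nearest to the gene, 1 on each strand, overlapped with an E-box. The Acss2 and Acly sequences held 3 and 4 GC boxes. Motifs were counted in the 250 bases before the RefSeq start, including bases inside the annotated gene, which the sequences above leave out. Such bases hold the CCAAT and a further GC box of Acss2, the Fads2 GC box and the whole Acaca stretch. They also hold the Srebf1 entries after the first, with all GC boxes of that gene. The GC boxes of Fads2 and Srebf1 thus lay only inside the annotated gene. In these 250 bases, CCAAT occurred on either strand in 3 of the 7 genes (Acss2, Fasn, Srebf1) and in 34.5% of 27025 genes. GGGCGG occurred in 4 of 7 (Acly, Acss2, Fads2, Srebf1) against 32.9% of genes, and CANNTG in 3 of 7 (Acaca, Fasn, Srebf1) against 66.0%. A member counted if any of its RefSeq entries matched, whereas the share of all genes rests on the first entry of each gene. Srebf1 had 3 entries, with no GC box in the first, so the counts and shares are not fully alike. The core letters of a sterol regulatory element, TCACNCCAC, occurred in 0 of 7 and in 1.04% of genes. The promoter of Elovl6, which was also called higher, held none of these 4 motifs. A match describes letters only.

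As a group, 6 of the 10 genes rose in GL261-GSCs (adjusted p under 0.05, edgeR quasi-likelihood test on UMIs summed per library, adjusted over all 18439 genes tested), whereas 29.9% of all genes tested were called and 15.8% rose. The 6 were Acly, Acss2, Fasn, Elovl6, Scd2 and Fads1. The 10 genes and the gene lists below were chosen with earlier results of these data known. Their counts were not tested against the shares of all genes. No gene of the 10 was called lower: the count was 0 at an unadjusted p under 0.05, and 0 by DESeq2 and by limma-voom. Of all genes tested, 14.1% were called lower with edgeR, 16.7% with DESeq2 and 15.1% with limma-voom. Among only 10 genes a count of 0 is not far from these shares. The share of all genes lower at an unadjusted p under 0.05 is not given here. In 8 of the 10 every GL261-GSCs library was above both GL261 libraries, which held for 28.7% of all genes tested, and in none was every GL261-GSCs library below both, which held for 28.0%. The median log2 fold change of the 10 was 0.75, beside 0.04 for all genes tested. Summed over the 10 genes, the level in CPM (counts scaled to a common library total, here with no TMM factor) was 840.4 and 839 for the GL261 libraries. It was 1387, 1487, 2068 and 2645 CPM for GL261-GSCs replicates 1 to 4. Scd2 was the largest part of each sum, at 220 and 231 CPM in GL261 and at 497, 626, 841 and 1212 CPM in GL261-GSCs replicates 1 to 4. The members thus separated the groups in total, with much weight on Scd2, and the GL261-GSCs libraries differed among themselves by more than the GL261 libraries did. These are sums over all cells of a library, in which fewer cells making an RNA and less RNA per cell cannot be told apart.

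**Figure D1:**
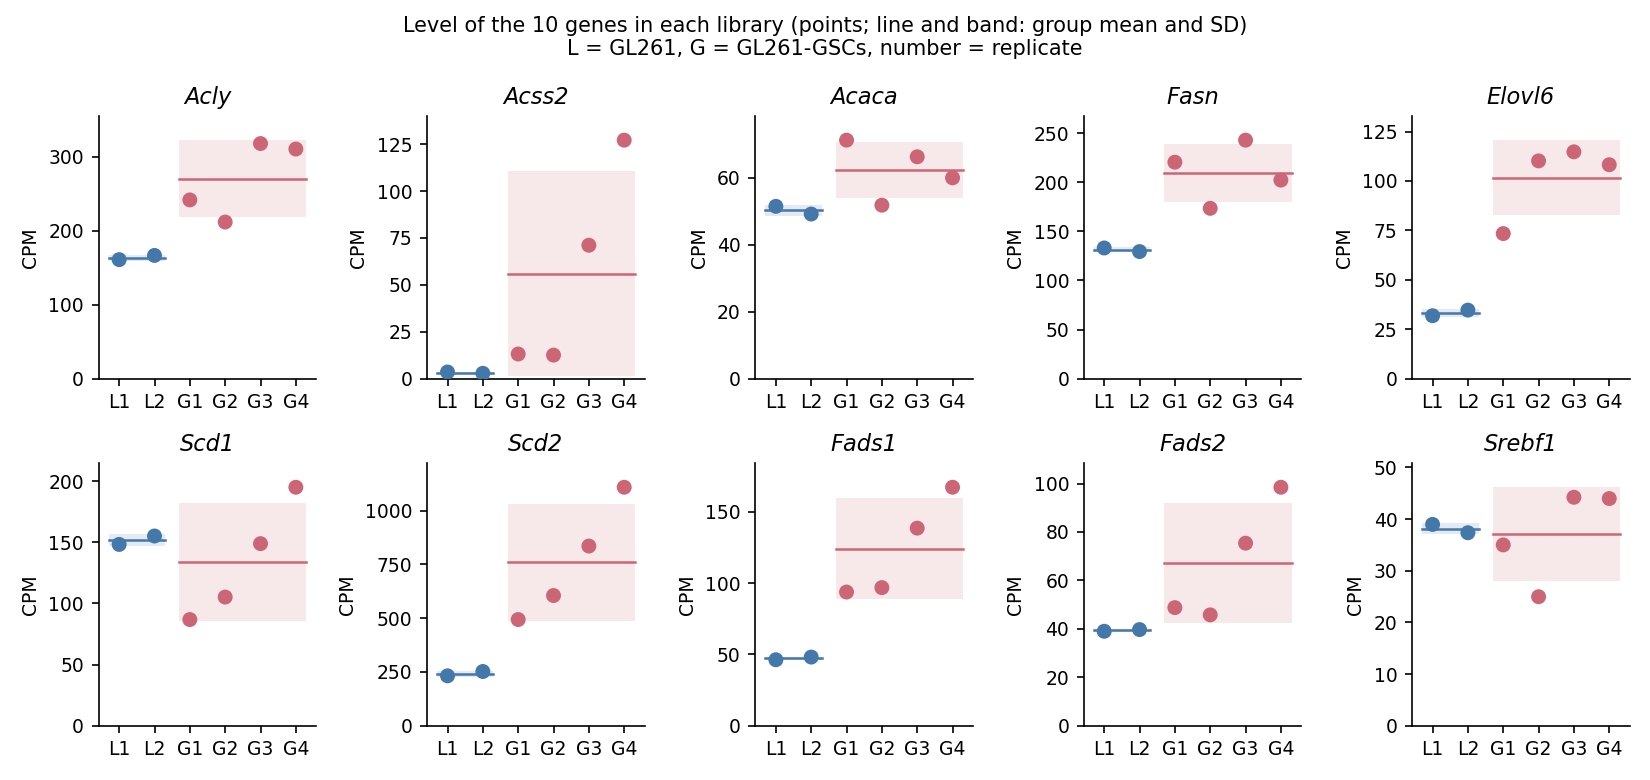
Level (CPM, normalised with TMM) of each gene in the 2 GL261 libraries (L1, L2) and the 4 GL261-GSCs libraries (G1 to G4). Each point is a library, the line is the group mean and the band is 1 SD. The GL261 points lie close together in every panel, and only Scd1 and Srebf1 have groups that overlap.

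The genes that supply acetyl-CoA both rose, by very different factors. Acss2, which makes acetyl-CoA from acetate, was at 3.51 and 2.80 CPM in GL261 and at 13.1, 12.5, 71.1 and 127 CPM in GL261-GSCs. Every GL261-GSCs library was above GL261, but replicates 3 and 4 stood far above replicates 1 and 2. The log2 fold change was 4.15 ± 1.19 (SE, n = 2 and 4; edgeR adjusted p = 0.0388). The ratio of means was 17.7 over all libraries, 4.06 with only GL261-GSCs replicates 1 and 2, and 31.4 with only replicates 3 and 4. The spread was the widest of the 10 genes, with the highest GL261-GSCs library 10.2 times the lowest. Acly, which cleaves citrate exported from mitochondria, was at 161 and 166 CPM in GL261 and at 241, 211, 318 and 310.1 CPM in GL261-GSCs. Its groups did not overlap, and the log2 fold change was 0.72 ± 0.20 (SE; edgeR adjusted p = 0.0352). Without GL261-GSCs replicate 3 neither gene was called (edgeR adjusted p = 0.0742 for Acly and 0.0763 for Acss2), and with limma-voom on all 6 libraries Acss2 was not called (log2 fold change 3.40, adjusted p = 0.104). Acss2 overlaps other genes, among them the antisense transcript Acss2os and the coding genes Gss and Ggt7, and the sources used here do not say how strand was used in counting.

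Of the enzymes that build palmitate, Fasn rose and Acaca was not called. Fasn, the multi-domain fatty acid synthase, was at 133 and 129 CPM in GL261 and at 221, 174, 243 and 202 CPM in GL261-GSCs. All 4 GL261-GSCs libraries were above GL261, with replicate 2 the lowest, and the log2 fold change was 0.68 ± 0.16 (SE; edgeR adjusted p = 0.0218). Acaca, the acetyl-CoA carboxylase of the cytosol, was at 51.4 and 49.1 CPM in GL261 and at 71.2, 51.8, 66.2 and 59.9 CPM in GL261-GSCs. Replicate 2 lay just above the higher GL261 library. The log2 fold change was 0.31 ± 0.16 (SE; edgeR adjusted p = 0.176), and without GL261-GSCs replicates 1 and 2 it was 0.35 with an edgeR adjusted p of 0.0321.

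Elovl6, which lengthens palmitate, rose, and its call held under each alternative setting tried. It was at 31.8 and 34.6 CPM in GL261 and at 73.4, 110.2, 115 and 108 CPM in GL261-GSCs. The means were 33.2 ± 2.01 CPM (SD, n = 2) and 102 ± 19.0 CPM (SD, n = 4), and the lowest library, replicate 1, was still above GL261. The log2 fold change was 1.61 ± 0.21 (SE; edgeR adjusted p = 0.00225). It was the single member that passed edgeR's test against a 2-fold change (adjusted p = 0.0288) and the single member still called when either GL261 library was left out.

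The stearoyl-CoA desaturases parted. Scd2 was at 232 and 252 CPM in GL261 and at 494, 605, 835 and 1109 CPM in GL261-GSCs, with no overlap between the groups and replicates 3 and 4 highest. Its log2 fold change was 1.65 ± 0.34 (SE; edgeR adjusted p = 0.0127). Scd1 was at 148 and 155 CPM in GL261 and at 86.7, 105, 149 and 195 CPM in GL261-GSCs, so that GL261 lay inside the range of GL261-GSCs. Its log2 fold change over all libraries was -0.18 ± 0.31 (SE; edgeR adjusted p = 0.695). Without GL261-GSCs replicates 3 and 4 it was -0.65, called lower with an edgeR adjusted p of 0.0140 (18.9% of genes were called lower in that fit), and without replicates 1 and 2 it was 0.20 with an edgeR adjusted p of 0.298. The difference between these pairs of libraries was not tested.

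Within GL261-GSCs the desaturases kept a near-fixed proportion. Scd1 made up 39.0% of the summed Scd1 and Scd2 UMIs in GL261 replicate 1 (95% exact binomial interval 38.4% to 39.6%) and 38.1% in replicate 2 (37.5% to 38.7%). In GL261-GSCs replicates 1 to 4 the share was 14.9% (14.6% to 15.3%), 14.8% (14.5% to 15.1%), 15.1% (14.9% to 15.4%) and 14.9% (14.6% to 15.3%). These intervals cover counting error only, and those of the 4 GL261-GSCs libraries overlap one another while lying far below GL261. The difference of the group means was -23.6 percentage points (exact permutation test over libraries, 2-sided, p = 0.133, the smallest p that 2 against 4 libraries allow). The share held although Scd1 and Scd2 each varied 2.25-fold in CPM over the GL261-GSCs libraries. Among the 45 pairs of members, looked at after the values were seen, the log2 ratio of Scd1 to Scd2 had the smallest SD over these libraries at 0.0148, with Acaca to Fasn next at 0.0998 and then Fads1 to Fads2 at 0.132. Free RNA (barcodes that held 100 UMIs or more but fewer than 1000) showed the same order, with a share of 36.7% and 34.5% for GL261 against 13.5%, 12.9%, 14.8% and 15.7% for GL261-GSCs. The genes are similar in sequence, and reads that could belong to either were not analysed here, so the split between them is uncertain and is read here only for its change between libraries. They lie apart on chromosome 19 (GRCm38), with Scd2 at 44293674 to 44306864 on the plus strand and Scd1 at 44394455 to 44407879 on the minus strand.

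**Figure D2:**
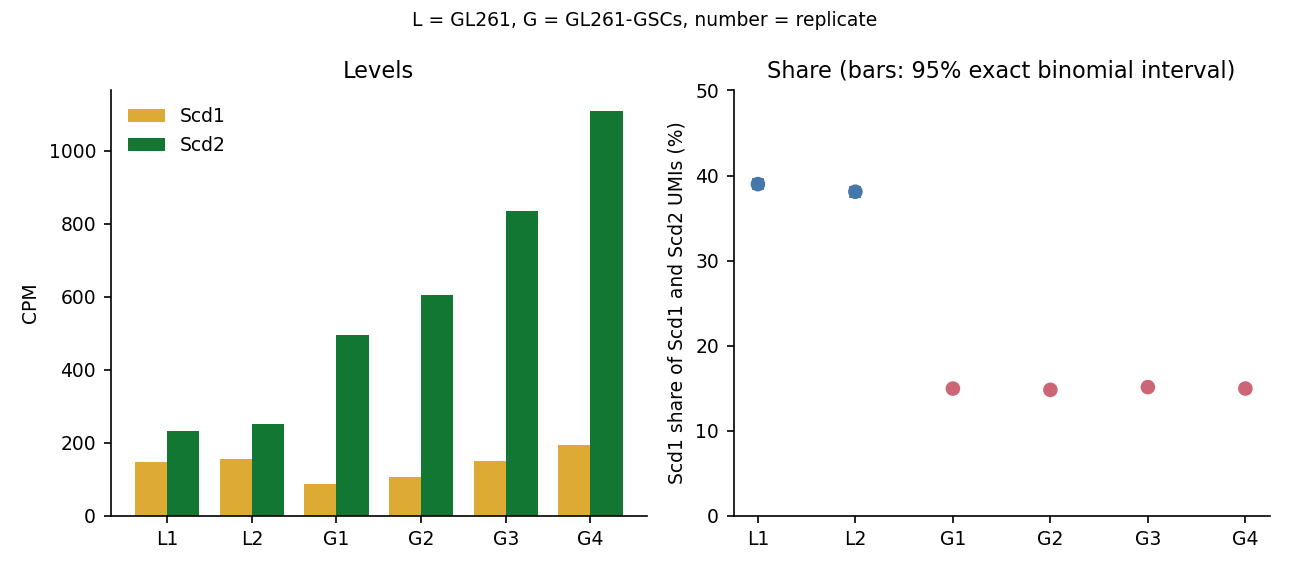
Left, CPM of Scd1 and Scd2 in each library (bars from 0). Right, the share of Scd1 in the summed Scd1 and Scd2 UMIs of called cells, with 95% exact binomial intervals, which are mostly smaller than the points. Levels climb unevenly over the GL261-GSCs libraries (G1 to G4), while the share is 14.8% to 15.1% in all 4, against 38.1% and 39.0% in GL261 (L1, L2).

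Of the polyunsaturated fatty acid desaturases, Fads1 rose and Fads2 was not called. Fads1 was at 46.2 and 48.1 CPM in GL261 and at 93.7, 96.8, 139 and 167 CPM in GL261-GSCs. The groups did not overlap, and the log2 fold change was 1.39 ± 0.27 (SE; edgeR adjusted p = 0.0103). Fads2 was at 39.0 and 39.7 CPM in GL261 and at 48.8, 45.8, 75.4 and 98.5 CPM in GL261-GSCs. Its groups did not overlap either, but the log2 fold change of 0.77 ± 0.33 (SE) had an edgeR adjusted p of 0.124, with replicates 3 and 4 well above replicates 1 and 2. Without replicates 1 and 2 its log2 fold change was 1.16 and it was called (edgeR adjusted p = 4.26e-04). Without replicates 3 and 4 it was 0.27 (edgeR adjusted p = 0.0703). A further gene of this cluster on chromosome 19, Fads3, went the other way: it was at 164 and 183 CPM in GL261 and at 19.3, 13.0, 24.1 and 23.3 CPM in GL261-GSCs. Its log2 fold change was -3.12 ± 0.24 (SE; edgeR adjusted p = 3.07e-04). Fads3 and Fads2 lie on opposite strands, with 2654 bases between their 3′ ends.

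Srebf1, the regulator among the 10, showed no called difference at the RNA level. It was at 39.0 and 37.4 CPM in GL261 and at 35.0, 24.97, 44.2 and 44.0 CPM in GL261-GSCs, with replicates 1 and 2 below GL261 and replicates 3 and 4 above it. The log2 fold change was -0.04 ± 0.24 (SE; edgeR adjusted p = 0.909), and its sign turned to 0.11 when libraries were scaled by size alone. RNA counts do not show how much of the protein was cut or in the nucleus.

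**Figure D3:**
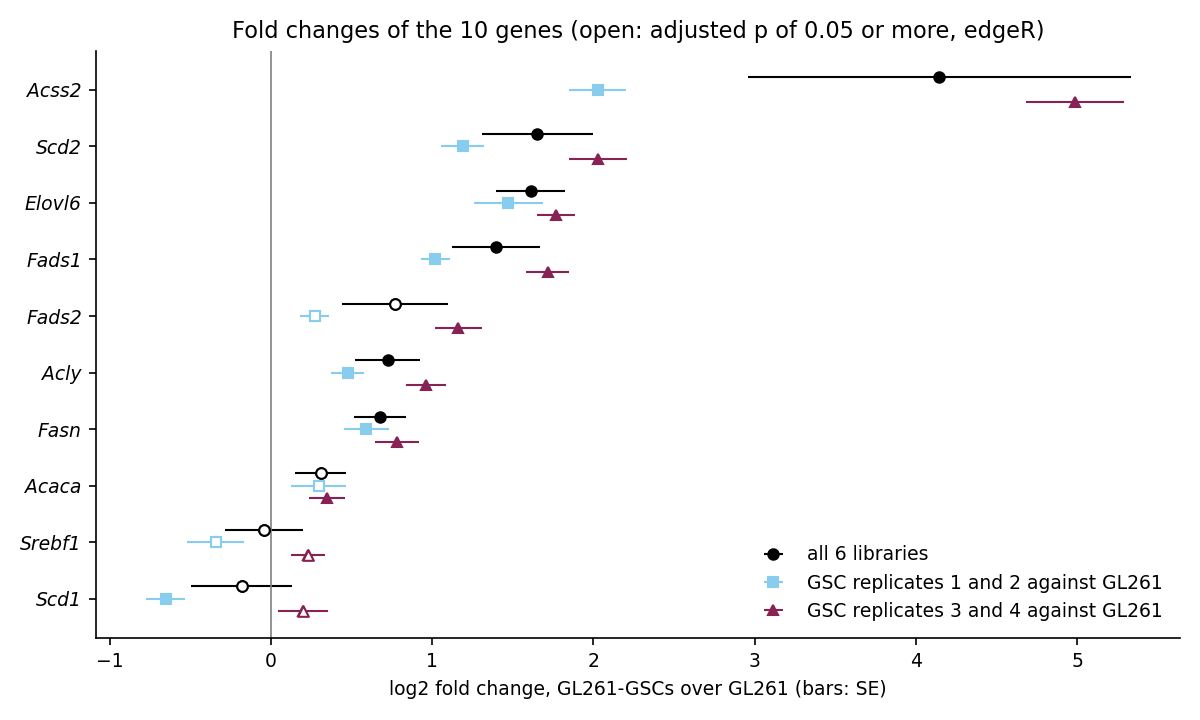
Log2 fold change of each gene, GL261-GSCs over GL261, with its SE, for all 6 libraries (circles), for GL261-GSCs replicates 1 and 2 (squares) and for replicates 3 and 4 (triangles). Filled symbols have an edgeR adjusted p under 0.05. Acss2 lies farthest right, with its circle at 4.15 and its triangle at 4.99, the triangles lie to the right of the squares for all 10 genes, and Scd1 and Srebf1 lie on both sides of 0.

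The 6 rises were called with either pair of GL261-GSCs libraries left out, in fits that are easier to pass. Each fit keeps only 2 GL261-GSCs libraries, which resembled each other. The calls over all genes rose from 5514 to 6985 without replicates 3 and 4 and to 9881 without replicates 1 and 2. Without replicates 3 and 4 the same 6 genes were called higher, with log2 fold changes of 2.03 for Acss2, 1.47 for Elovl6, 1.19 for Scd2, 1.02 for Fads1, 0.59 for Fasn and 0.48 for Acly (20.9% of genes were called higher in that fit). Without replicates 1 and 2, 8 of the 10 were called higher, Acaca and Fads2 being added (28.7% of genes). The GL261 libraries limited the test more: with either of them left out, 1 of the 10 was called, and the calls over all genes fell from 5514 to 1972 and 1817. A lone GL261 library is then assumed to vary like the other group. With the 25% of cells of each library that had the highest Malat1 share removed, 6 members were called higher and all 6 were shared with the calls over all cells (16.04% of genes were called higher in that fit). The same held without replicate 4 (16.3% of genes). Without replicate 3, however, 4 members were called higher, Acly and Acss2 being lost (12.03% of genes).

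Per cell, the members kept the order seen in the sums. With each cell thinned to 2000 UMIs, a cell of GL261 held on average 1.73 UMIs of the 10 genes in both libraries, and a cell of GL261-GSCs held 3.11, 3.30, 4.97 and 6.38 UMIs in replicates 1 to 4. Cells with none of them made up 22.5% and 23.0% of GL261 and 10.3%, 8.14%, 5.84% and 3.55% of GL261-GSCs. The 10% of cells with most member UMIs held 28.3% to 30.2% of them in every library, a share that also depends on the mean count.

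Gene by gene, Scd2 was seen in 33.2% and 34.5% of thinned GL261 cells and in 58.6%, 66.7%, 73.0% and 79.5% of thinned GL261-GSCs cells. Free RNA alone would give Scd2 a share of 2.01% to 2.61% in GL261 and of 5.45% to 25.8% in GL261-GSCs, below the observed share in each library. Acss2 was seen in 0.458% and 0.580% of GL261 cells and in 2.81%, 2.74%, 14.5% and 23.5% of GL261-GSCs cells, with free RNA at 0.0172% to 2.72%. In both genes the groups did not overlap. The mean share went from 6.20% to 20.3% for Elovl6, from 7.99% to 23.8% for Fads1, from 19.7% to 34.5% for Fasn, from 26.2% to 41.6% for Acly, from 8.89% to 13.4% for Acaca and from 6.99% to 13.6% for Fads2. These groups did not overlap either, and each of these 8 genes had p = 0.133 (exact permutation test, 2-sided), the smallest possible. The share of all genes that would part the groups in this measure was not computed. On summed UMIs, 28.7% of all genes tested were higher in GL261-GSCs without overlap, and the shares of cells come from the same UMIs. Scd1 was seen in 24.4% and 24.2% of GL261 cells and in 16.6%, 19.8%, 26.7% and 34.4% of cells of GL261-GSCs replicates 1 to 4, so that replicates 1 and 2 lay below GL261 and replicates 3 and 4 above it (exact permutation p = 1). Srebf1 was seen on average in 6.91% of GL261 cells and 8.39% of GL261-GSCs cells (exact permutation p = 0.533). Without thinning, where cells differ in depth, Scd2 was seen in 83.8% and 84.6% of GL261 cells and 96.6% to 97.9% of GL261-GSCs cells. Free RNA alone would then give Scd2 a share of 9.82% to 13.5% in GL261 and of 28.8% to 55.5% in GL261-GSCs. Acss2 was then seen in 4.72% and 3.24%, and in 13.5% to 44.9%. The groups then overlapped for Acly, Fasn and Acaca (exact permutation p = 0.4, 0.4 and 0.8), with the shallow replicate 4 below GL261 at 78.9%, 66.7% and 34.8%. Scd1 was then seen in 77.2% and 74.8% of GL261 cells and in 66.0% to 70.1% of GL261-GSCs cells, with no overlap.

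**Figure D4:**
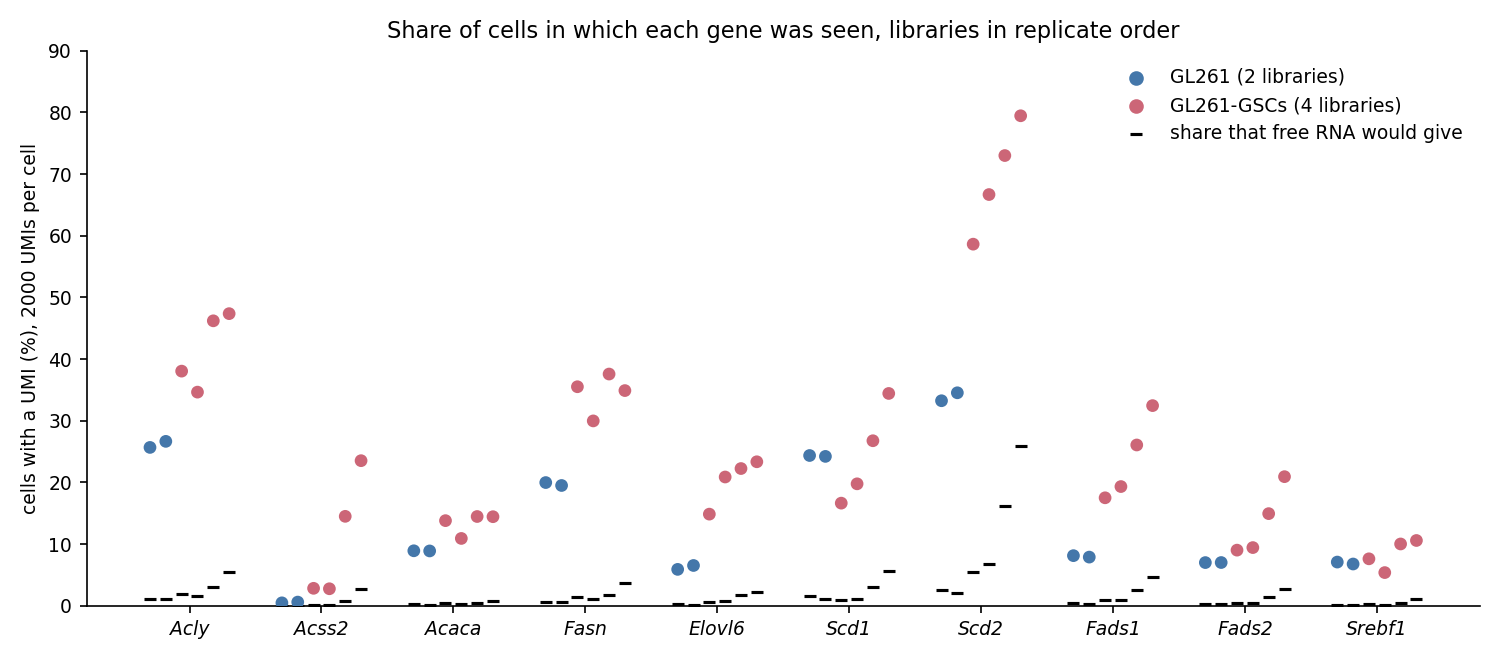
Percentage of cells with at least 1 UMI of each gene, each cell thinned to 2000 UMIs. Points are libraries in replicate order (GL261 blue, GL261-GSCs red), and black dashes are the share that free RNA alone would give. Scd2 is seen in 33.2% to 34.5% of GL261 cells and 58.6% to 79.5% of GL261-GSCs cells, and every point lies above its dash.

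The members varied together with sterol genes from cell to cell, more so in GL261-GSCs. Values of r across cells were taken on log2(1 + UMIs). Across thinned cells of a library, the Pearson r between the summed members and the sum of 19 genes of sterol synthesis and uptake came to 0.103 and 0.083 for the GL261 libraries. For GL261-GSCs replicates 1 to 4 it came to 0.374, 0.360, 0.577 and 0.639. Without thinning, with the UMIs of each cell scaled to a common total before the log, these values were 0.265 and 0.277, and 0.684, 0.611, 0.777 and 0.767. The points are cells of a single library, which share depth and free RNA, and sparse counts lower r where levels are low, so the values are a description. Pairs of members had a median r of 0.0156 to 0.0872 over libraries. Scd1 with Scd2 had an r of 0.119 and 0.115 across GL261 cells, and of 0.139, 0.150, 0.265 and 0.327 across GL261-GSCs cells.

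Of the 19 sterol genes 18 rose and 1 fell, beside 15.8% and 14.1% of all genes tested, with a median log2 fold change of 2.17. Hmgcs1, which makes the precursor of mevalonate, had a mean of 31.8 CPM in GL261 and 384 CPM in GL261-GSCs (log2 fold change 3.59 ± 0.35 SE). Mvd, the last enzyme of the mevalonate steps, had a log2 fold change of 3.22. The gene that fell was Ebp, a sterol isomerase, at -0.60.

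Other enzymes of synthesis, elongation and desaturation were split. Of 27 listed genes 25 were tested, 6 rose and 5 fell, beside the same 15.8% and 14.1%, with a median log2 fold change of 0.01. Acss1, the mitochondrial counterpart of Acss2, rose from a mean of 2.92 to 18.7 CPM (log2 fold change 2.67). The elongases Elovl4 and Elovl7 rose by 1.62 and 1.59 on the log2 scale. Besides Fads3, the falls included Me1, malic enzyme, which supplies NADPH (mean 247 CPM in GL261, 101 CPM in GL261-GSCs, log2 fold change -1.29), and Mid1ip1, which promotes the assembly of acetyl-CoA carboxylase (log2 fold change -1.15).

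Among 16 regulators 5 rose and 2 fell, against 15.8% and 14.1% of all genes tested. Insig1, which retains SREBP proteins in the endoplasmic reticulum and is itself an SREBP target, was at 27.1 and 25.2 CPM in GL261 and at 187, 172, 293 and 357 CPM in GL261-GSCs (log2 fold change 3.27; edgeR adjusted p = 0.00123). Srebf2 rose from a mean of 76.3 to 252 CPM (log2 fold change 1.72; edgeR adjusted p = 0.00144), unlike Srebf1. Mlxipl, the carbohydrate-responsive factor ChREBP, rose from a mean of 0.252 to 2.50 CPM, a low level in which replicate 1 alone reached 6.05 CPM (log2 fold change 3.29; edgeR adjusted p = 0.0452). Its partner Mlx fell (log2 fold change -0.74), and so did Nr1h3, the liver X receptor that activates Srebf1 transcription (mean 16.4 to 4.23 CPM, log2 fold change -1.95; edgeR adjusted p = 0.00189).

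Of 18 genes for activation, esterification and storage 17 were tested, and 3 rose and 3 fell, close to the 15.8% and 14.1% of all genes tested. Acsl3, which activates long-chain fatty acids at lipid droplets, was at 71.5 and 59.0 CPM in GL261 and at 258, 272, 604 and 946 CPM in GL261-GSCs (log2 fold change 2.99). Lpin1, a phosphatidate phosphatase, and Plin3, a lipid droplet protein, rose by 2.57 and 0.57 on the log2 scale. Agpat2, an acyltransferase of phosphatidate synthesis, Mboat7, which esterifies arachidonate into phosphatidylinositol, and Pnpla2, the main triglyceride lipase, fell by 0.81, 0.66 and 0.54.

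Of 11 listed genes for uptake and binding 9 were tested, 5 rose and 1 fell, beside 15.8% and 14.1% of all genes tested. Fabp7, the fatty acid binding protein of radial glia and glioma stem-like cells, had 5 and 4 UMIs in the GL261 libraries and 49.6, 76.6, 72.1 and 71.5 CPM in GL261-GSCs. Mfsd2a, a transporter of lysophospholipids that carry docosahexaenoic acid, rose from a mean of 9.07 to 46.0 CPM (log2 fold change 2.34). Fabp4 was called higher at a very low level (mean 0.0314 to 0.613 CPM). Slc27a4, a fatty acid transport protein, fell (log2 fold change -0.52).

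Of 19 listed genes of fatty acid oxidation 18 were tested, 8 fell and 2 rose, beside 14.1% and 15.8% of all genes tested, with a median log2 fold change of -0.29. Cpt1a, which passes fatty acids into mitochondria and is the control point of their oxidation, was at 15.3 and 17.2 CPM in GL261 and at 4.59, 2.46, 1.61 and 1.24 CPM in GL261-GSCs (log2 fold change -2.71; edgeR adjusted p = 0.0073). The groups did not overlap. Slc25a20, the carnitine carrier, and Acaa2, the last enzyme of the mitochondrial cycle, fell by 1.28 and 1.30 on the log2 scale. The 2 that rose were the regulators Ppard, a fatty acid sensing receptor (log2 fold change 1.66), and Ppargc1a, a coactivator of mitochondrial genes. Ppargc1a had 2 UMIs in GL261 and 1131 UMIs in GL261-GSCs, a ratio per UMI of 312 (95% counting interval 86.1 to 2577).

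**Figure D5:**
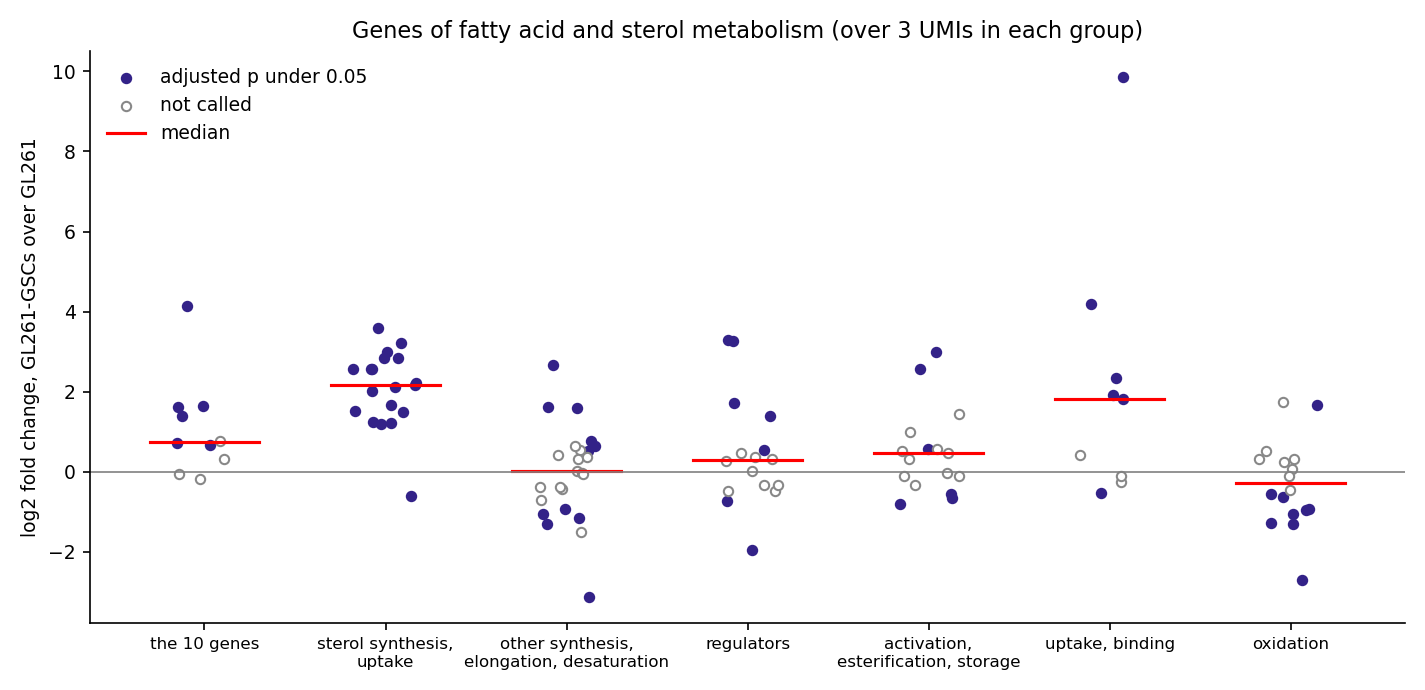
Log2 fold change, GL261-GSCs over GL261, of each tested gene in 7 lists (filled, edgeR adjusted p under 0.05; open, not called; red line, list median over all tested genes). Ppargc1a, Mgll and Thrsp, with 1 or 2 UMIs in GL261, are not drawn but count in the medians. The sterol list has 18 of 19 genes above 0, the 10 members have a median of 0.75, and the oxidation list has a median of -0.29.

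Over the 5 lists other than sterol genes and members, 85 of 91 genes were tested, 21 rose and 19 fell, beside 15.8% and 14.1% of all genes tested. Outside all lists, the genes whose levels over the 6 libraries were most like the mean standardised level of the 10 members were Clcn3, Txndc16, Slc2a1, Osbpl8 and Impad1, with Pearson r of 0.998, 0.997, 0.996, 0.995 and 0.995 among 5343 candidates. Slc2a1, the glucose transporter GLUT1, for example, was at 57.2 and 58.5 CPM in GL261 and at 98.6, 75.7, 144 and 173 CPM in GL261-GSCs. With 6 libraries and so many candidates, high values of r are a description of likeness and carry no test.

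Markers of other cell types moved with the groups in places. In the neuron list 2 of 4 genes were tested, and 1 was called higher and 0 lower, beside 15.8% and 14.1% of all genes tested. The 1 called was Syt1, with 3 UMIs in GL261 and 1.15, 12.4, 51.6 and 78.2 CPM in GL261-GSCs replicates 1 to 4. Slc17a7 was not called (log2 fold change -0.24, edgeR adjusted p = 0.740), Snap25 had at most 5 UMIs in a library, and Rbfox3 was at 0 in every library. The summed myeloid markers were at 12.8 to 13.1 CPM in GL261 and 0.192 to 0.334 CPM in GL261-GSCs. Csf1r alone made up nearly all of the GL261 sum (12.9 and 12.6 CPM) and was the single gene of the 6 tested, while Ptprc had 1 UMI in each GL261 library and C1qa was at 0. Of the 5 oligodendrocyte markers 3 were called higher and 1 lower, beside 15.8% and 14.1% of all genes tested. Their sums were 172 to 268 CPM in GL261 and 164 to 237 CPM in GL261-GSCs. The astrocyte markers summed to 46.1 to 48.0 CPM in GL261 and 112 to 188 CPM in GL261-GSCs, with Aqp4 at 0. Of 4 tested, 1 was called higher and 2 lower (Aldh1l1 and Gfap), beside the same 15.8% and 14.1%. The 1 called higher was Slc1a3, with a mean of 0.0815 CPM in GL261 and 74.8 CPM in GL261-GSCs. The fat cell markers summed to 0.166 to 0.311 CPM in GL261 against 0.497 to 1.80 CPM in GL261-GSCs, and Fabp4 was called higher among them. The endothelial markers stayed at or below 1.63 CPM in sum, with Cldn5 at 0, and Cdh5 was called lower with 49 UMIs in GL261 and 1 in GL261-GSCs. The part of these cell-type markers in the members' values was not tested.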

How the data were processed

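Per the file headers, the deposited matrices come from Cell Ranger 4 and hold unfiltered UMI counts by gene and barcode; mm10 is the build named in the submitters' processing notes. The sources used here give no aligner settings or strand handling. The labels' protocols give dissociation of cells and neurospheres by Accutase, a lysis buffer with a non-ionic detergent, and capture as cells or nuclei with a 10x Genomics 5′ kit. The members and gene lists were chosen with earlier results of these data known.

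Among the 3000 largest barcodes of a library the 99th percentile of UMIs was taken, and called cells had to reach 10% of it (2060 to 3275 UMIs), 500 genes and under 10% mitochondrial UMIs, which removed 30 to 191 barcodes per library. Doublets were not removed. UMIs were summed per library (33320530 to 79472306) and tested with the edgeR 4.0.16 quasi-likelihood test in R 4.3.3 (TMM, filterByExpr, 2-sided, Benjamini-Hochberg), with no covariate. SEs were derived from the fold change and the F statistic of its test (absolute log2 value over the root of F). CPM used TMM-scaled library sizes. Genes with only 1 to 3 UMIs in either group have a ratio with a 95% counting interval instead of a fitted fold change. For shares of cells and r across cells, cells were thinned without replacement to 2000 UMIs, and no called cell was shallower. The share from free RNA is that expected from the median UMIs of barcodes with at least 100 and under 1000 UMIs. Single values were compared by exact permutation over the 15 splits (scipy 1.17.1). Coordinates are those of GENCODE M21 (GRCm38), and promoters those of RefSeq (GRCm38.p6).

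Named were all 10 members, from each other pathway list the 3 largest called rises and falls, and 5 genes most like the members (average log2 CPM of at least 5, in no list); a gene named by this rule is not reported here. Alternatives were other scalings, DESeq2 1.42.0, limma-voom 3.58.1, a test against a 2-fold change, other filters on genes and cells, a replicate block and left-out libraries. On simulated data with 194 genes changed by 2 on the log2 scale among 17974, edgeR recovered 171 and made 3 false calls. The simulation gave all genes the same spread between libraries, no pairs among GL261-GSCs and only changes of this size. Its figures therefore do not describe smaller changes or the paired libraries of these data.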

Additional observations from a re-analysis of the deposited data

Results flagged for a closer look

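Of 53 values looked at within the 4 GL261-GSCs libraries, 3 had a library far from the others, and chance would set apart about 1 in 20 such groups. Elovl6 was at 73.4 CPM in replicate 1, below 108 to 115 CPM in the other 3, and its rise over GL261 was called without that library too. Mlxipl was at 6.05 CPM in replicate 1, above 0.800 to 1.57 CPM. Mboat7 was at 27.6 CPM in replicate 2, below 35.0 to 36.0 CPM.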

How the results depend on the processing

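The 6 members called higher were 5 with limma-voom (Acss2 lost, adjusted p = 0.104; 14.5% of all genes called higher, against 15.8%), 1 (Elovl6) with edgeR's test against a 2-fold change (5.93% of all genes higher and 4.85% lower), and 1 to 6 when each library was left out in turn, with 1 (Elovl6) left when either GL261 library was dropped and 4 when GL261-GSCs replicate 3 was. Of all genes, 5.11% and 4.31% were called higher without a GL261 library and 12.03% without GL261-GSCs replicate 3. No member was called lower, except 1 (Scd1) with the replicate block (16.7% of all genes) and 1 (Scd1) without GL261-GSCs replicates 3 and 4 (18.9%). The block held 2 pairs of same-numbered libraries whose deviations from their group means correlated at -0.026 and 0.037. With 2 GL261 libraries these deviations mirror each other. The values therefore cannot show whether same-numbered libraries share more than a number. Scd1 had a log2 fold change of -0.67 in the fit with the block (edgeR adjusted p = 0.0124). The 21 other pathway genes called higher were 11 against a 2-fold change, 34 without GL261-GSCs replicates 1 and 2 (28.7% of all genes), and 9 to 25 with each library left out. The 19 called lower were 3 against a 2-fold change (4.85% of all genes). Their number also changed with the library left out, as did the share of all genes called lower. That share was 10.6% to 15.4% with a single GL261-GSCs library left out, against 14.1% over all libraries. The log2 fold change of Scd1 turned to 0.20 without GL261-GSCs replicates 1 and 2. That of Srebf1, which was -0.14 to 0.13 with each library left out, turned to 0.11 with library size scaling, 0.13 without GL261-GSCs replicate 2 and 0.23 without GL261-GSCs replicates 1 and 2. With library size scaling the median over all genes shifted on the log2 scale from 0.04 to 0.18, and the calls from 2920 higher and 2594 lower to 3491 and 2034. The difference in the share of cells with a UMI, GL261-GSCs minus GL261, was 0.107 percentage points for Scd1 and became -0.559 with a mitochondrial limit of 5%, -0.106 when thinned to 1000 UMIs, -8.61 with no thinning, -0.293 with all barcodes of at least 1000 UMIs, -3.24 to 2.69 with each library left out (-0.680 without GL261-GSCs replicate 3, -3.24 without replicate 4), and -6.09 without both. For Srebf1 it was 1.47 and became -4.57 with no thinning and -0.432 without GL261-GSCs replicates 3 and 4. Beyond the changed numbers of libraries and UMIs, the cause was not tested. The Scd1 share of desaturase UMIs differed by -24.0 to -23.1 points with each library left out. With 2 GL261 libraries no exact test over libraries can pass 0.05, and for RNAs as rare as Acss2 in GL261 the depth per cell limits the share of cells.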

Other observations

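Free RNA held the members in unequal proportions. The ratio of a gene's level in barcodes with at least 100 and under 1000 UMIs to its level in called cells, both scaled to the total of those barcodes, had a median of 0.969 (0.608 to 1.62, 30 values over 6 libraries) for Elovl6, Scd1, Scd2, Fads1 and Fads2, which encode enzymes of the endoplasmic reticulum membrane. It had a median of 0.676 (0.432 to 0.863, 24 values) for Acly, Acss2, Acaca and Fasn, which encode soluble enzymes, and of 0.595 (0.455 to 0.881, 6 values) for Srebf1. Srebf1, whose protein is also made as a membrane protein, thus had the lowest median, unlike the membrane enzymes. The ranges of the enzyme groups overlapped, and the grouping was made after the values were seen.

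Mgll, the monoglyceride lipase, parted the GL261-GSCs libraries. It had 1 UMI in each GL261 library, 806 and 1345 UMIs in GL261-GSCs replicates 1 and 2, and 6 and 3 UMIs in replicates 3 and 4, and was not called (edgeR adjusted p = 0.0828). Dbi, the acyl-CoA binding protein, was at 1448 and 1385 CPM in GL261 and at 2210.2, 1697, 757 and 599 CPM in GL261-GSCs, so that replicates 1 and 2 were above GL261 and replicates 3 and 4 below it (log2 fold change -0.11, edgeR adjusted p = 0.895). Thrsp, the lipogenic cofactor Spot 14, had 1 UMI in GL261 and 2, 6, 38 and 13 UMIs in GL261-GSCs replicates 1 to 4, so that most came from replicate 3, and was not called (edgeR adjusted p = 0.0736). These genes were chosen after their values were seen.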
